A study of Mus musculus with 2 samples.

Results

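PPAR alpha, the nuclear receptor encoded by Ppara, and 8 genes that are textbook targets of it or enzymes of fatty acid oxidation were followed in liver sections analyzed by spatial transcriptomics (ST). The 9 genes, Ppara, Cpt1a, Pdk4, Cyp4a10, Cyp4a14, Fgf21, Angptl4, Ehhadh and Acot1, were picked by symbol among the 19465 genes of the count tables, and all 9 were found there. One section came from an AEG-1-WT liver and 1 from an AEG-1-C75S liver, each from identical lobes of an 8-week-old naive female mouse, and the mice were littermates from heterozygote by heterozygote mating. AEG-1-C75S is a CRISPR/Cas9 knock-in in which cysteine 75 of AEG-1 (encoded by Mtdh), the residue that is palmitoylated, is replaced by serine. Neither mouse was treated, and the livers are called WT and C75S below. With 1 mouse per genotype, the genotype cannot be told apart from the animal. Intervals of counts and ratios cover counting error only, those of shares of spots take spots as independent, and none covers spread between mice.

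PPAR alpha binds DNA as a heterodimer with a retinoid X receptor, at direct repeats of a short half-site, and is switched on by fatty acids. In hepatocytes it is best known for the response to fasting, in which fatty acids released from adipose tissue are burned in mitochondria and peroxisomes and are turned into ketone bodies for other organs. AEG-1 has been reported to restrain PPAR alpha, and the levels of these genes are compared between the sections below. Whether AEG-1 restrains PPAR alpha was not tested, because the genotype cannot be told apart from the animal.

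The assay captured RNA with gene-specific probe pairs on spots of the slide, and a spot is a small region of tissue that can hold several cells. Kept were 2309 WT and 2163 C75S spots with at most 50000 UMIs (unique molecular identifiers, each standing for 1 captured molecule), which held 42246988 and 41674347 UMIs. The median spot held 16830 UMIs in WT and 18808 in C75S, but 397 C75S spots were under 10000 UMIs against 31 WT spots. Of the spot barcodes, 1896 occurred in both libraries, since capture areas of this assay carry the same barcode layout. Hepatocyte RNA dominated: Alb, the albumin gene, had 5380256 UMIs in WT and 5040590 in C75S. The edited gene itself, Mtdh, was at 74.4 CPM (UMIs scaled to a section total of 1000000) in WT and 73.3 in C75S, and these counts cannot show a change of 1 codon. Because genes differ in their probes, levels are compared between sections and zones for each gene, and not between genes.

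The genes lie on 8 chromosomes, and Cyp4a10 and Cyp4a14 are neighbors on chromosome 4 (mm10, chr4:115518264-115533649 on the plus strand and chr4:115486200-115496142 on the minus strand). On the plus strand also lie Ppara (chr15:85734983-85802819), Cpt1a (chr19:3322334-3385733) and Acot1 (chr12:84009490-84018371). On the minus strand lie Pdk4 (chr6:5483351-5496309), Fgf21 (chr7:45613886-45615490), Ehhadh (chr16:21761287-21787807) and Angptl4 (chr17:33773750-33781830). A search of 2500 bases on either side of each gene start, on both strands, for the half-site AGGTCA repeated after 1 base of any kind, with at most 1 mismatch in the 12 compared letters, found 1 match among the 9 genes. This match, the only sequence of the kind in these windows, was centered 1431 bases upstream of the Cyp4a10 start, at chr4:115516817-115516849, and read on the minus strand as follows, with the half-sites in capitals.
Cyp4a10 upstream repeat: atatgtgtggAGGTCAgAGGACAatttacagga
The same search matched 9.21% of the windows of 19451 genes, so that 1 of 9 is close to the share over all genes. A match is a description of letters and not a binding site.

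**Figure D1:**
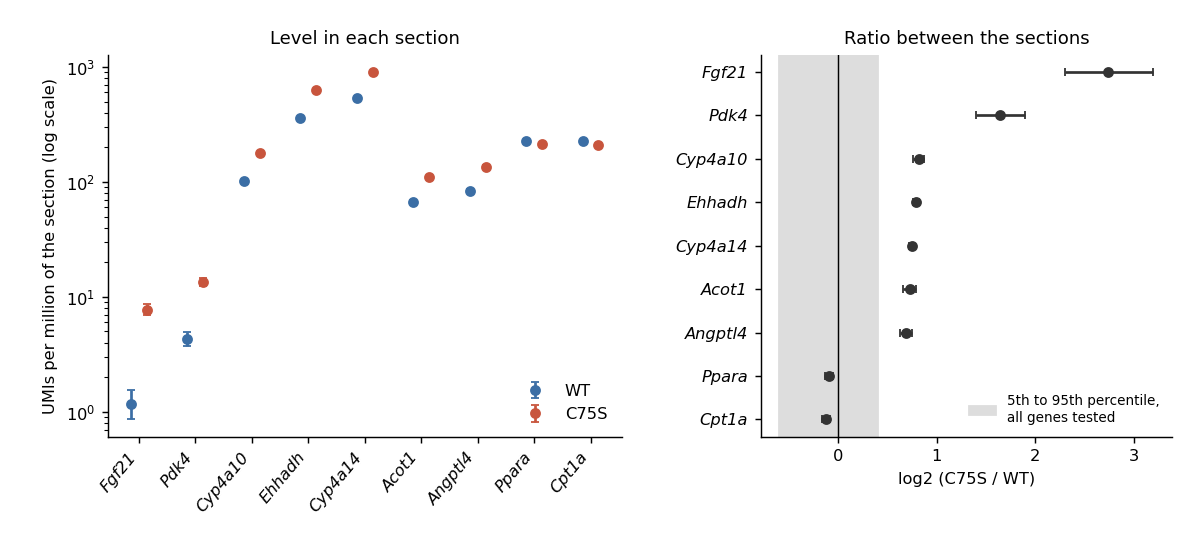
Left, level of each gene in each section, in CPM on a log scale, with 95% Poisson intervals (bars, mostly smaller than the points); heights of different genes are not comparable. Right, log2 ratio of C75S over WT with 95% intervals, with the 5th to 95th percentile of the 11998 genes tested in gray; 7 genes lie to the right of the gray band, from 0.69 (Angptl4) to 2.74 (Fgf21), while Ppara and Cpt1a lie inside it just below 0.

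Over the whole sections, 7 of the 9 genes were higher in C75S, by 1.61-fold (Angptl4) to 6.66-fold (Fgf21), and Ppara and Cpt1a were not called. A gene was called when its log2 ratio was past 0.32 in either direction and its 95% interval left out 0. This was asked of the 11998 genes that reached 50 UMIs when both sections were added. By this rule 684 genes, 5.70% of those tested, were higher in C75S and 1464, or 12.2%, were lower. Of the 9 genes, 7 were higher and none lower. The 9 genes were chosen with earlier results of these data known, so this contrast is a description and not a test. The median log2 ratio was 0.74 over the 9 genes and -0.05 over all genes tested, whose 5th and 95th percentiles were -0.60 and 0.40. All 7 were also past 1.5-fold.

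The receptor itself was not higher. Ppara had 9631 UMIs (228 CPM) in WT and 8887 (213 CPM) in C75S, a log2 ratio of -0.10 (95% interval -0.14 to -0.05). This is a small difference that was not called, near the median of -0.05 over all genes tested. Rxra, the main retinoid X receptor of hepatocytes, was at 266 and 235 CPM, a log2 ratio of -0.18. Of 21 genes for PPAR alpha, its relatives, partners and coregulators, 2 were called higher and 2 lower, with a median of -0.03. Nr0b2, which encodes the corepressor SHP, was at 40.7 CPM in WT and 83.1 in C75S, and Lpin1, a phosphatidate phosphatase that also acts as a coactivator of PPAR alpha, was at 41.8 and 72.3 CPM. Lower were Rxrg (log2 ratio -0.45) and Ppargc1b, a coactivator of mitochondrial genes (-0.34).

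The secreted products held both the largest and the smallest ratio of the 7 called genes, those of Fgf21 and Angptl4. Fgf21, a hormone released by the liver in fasting, had 49 UMIs (1.16 CPM) in WT and 322 (7.73 CPM) in C75S. The section of C75S thus held 6.66 times the level of WT (95% interval 4.92 to 9.19), the 5th highest ratio of the 11998 genes. Fgf21 was sparse in both livers: 48 of 2309 WT spots (2.08%) and 291 of 2163 C75S spots (13.5%) had a UMI, and no spot had more than 4. The 1% of spots richest in Fgf21, rounded down to whole spots, held 49.0% of its UMIs in WT and 14.0% in C75S. Leaving out the richest 1%, rounded up, gave a log2 ratio of 3.54 in place of 2.74. This follows from how few WT spots held a UMI. Angptl4, an inhibitor of lipoprotein lipase, had 3553 UMIs (84.1 CPM) in WT and 5646 (135 CPM) in C75S, a log2 ratio of 0.69 (0.63 to 0.75). The genes of adipocytes, which also make Angptl4, were almost absent, with 2 to 4 UMIs for each of Adipoq, Plin1, Cidea and Cfd in WT and 0 to 2 in C75S.

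The genes that steer fuel into mitochondria differed from each other. Pdk4, the kinase that switches off pyruvate dehydrogenase and so spares glucose, had 182 UMIs (4.31 CPM) in WT and 561 (13.5 CPM) in C75S. Its ratio of 3.12-fold (2.64 to 3.71) was the 18th highest of all genes tested. Cpt1a, the carnitine palmitoyltransferase that admits fatty acids to mitochondria, had 9660 UMIs (229 CPM) and 8726 (209 CPM), a log2 ratio of -0.13 (-0.17 to -0.09). Pdk4 was therefore called higher, while the small difference of Cpt1a was not called and stands beside a median of -0.05 over all genes tested. Among the other pyruvate dehydrogenase kinases, Pdk2 went the opposite way to Pdk4, from 136 to 85.3 CPM (log2 ratio -0.68), and Pdk1 was at 54.6 and 54.4 CPM.

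The CYP4A enzymes, which add a hydroxyl group to the far end of fatty acids, were higher together. Cyp4a10 had 4294 UMIs (102 CPM) in WT and 7459 (179 CPM) in C75S, a log2 ratio of 0.82 (0.76 to 0.87). Cyp4a14 had 22589 UMIs (535 CPM) and 37314 (895 CPM), a log2 ratio of 0.74 (0.72 to 0.77). Their close relative Cyp4a32 was at 19.8 and 32.8 CPM, a log2 ratio of 0.73. The CYP4F enzymes were not called, with log2 ratios from -0.22 (Cyp4f15) to -0.18, and Aldh3a2, which oxidizes the fatty aldehydes made next in the pathway, was lower (-0.37). Ehhadh, the peroxisomal bifunctional enzyme, had 15340 UMIs (363 CPM) in WT and 26193 (629 CPM) in C75S, a log2 ratio of 0.79 (0.76 to 0.82). Acot1, a cytosolic thioesterase that releases fatty acids from coenzyme A, had 2810 UMIs (66.5 CPM) and 4579 (110 CPM), a log2 ratio of 0.72 (0.66 to 0.79).

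Some of these genes have near-identical relatives, and reads of one could be counted for another. The probe sequences were not analysed here, so runs of 50 bases shared between transcripts were counted instead. Of the 2106 such runs in the Cyp4a10 transcripts, 24.5% also occurred in Cyp4a32, against 0.235% of the Cyp4a14 runs in its nearest relative, and of the Acot1 runs 13.6% occurred in Acot2. Angptl4, Ehhadh, Fgf21 and Ppara shared none. The coding sequence of Cyp4a10 was 97.2% identical to that of Cyp4a32 and 76.4% identical to that of Cyp4a14, as the stretch from coding base 301 to 360 of Cyp4a10 and the matching stretches show, with letters that differ from Cyp4a10 in capitals.
Cyp4a10: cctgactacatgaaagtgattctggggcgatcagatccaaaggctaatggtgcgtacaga
Cyp4a32: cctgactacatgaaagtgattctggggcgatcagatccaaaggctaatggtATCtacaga
Cyp4a14: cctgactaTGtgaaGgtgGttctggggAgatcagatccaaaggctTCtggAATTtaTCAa
Cyp4a10 and Cyp4a32 were alike in all but 3 of these 60 letters, so their counts are uncertain as to the gene they belong to, whereas Cyp4a14 differed in 14. For Acot1 the coding identity was 85.9% with Acot2 and 82.5% with Acot3, where bases that only the longer sequence has count as differences. The coding sequences had 1257 bases in Acot1, 1359 in Acot2 and 1296 in Acot3, so part of the difference is length. The stretch from coding base 301 to 360 is shown with letters that differ from Acot1 in capitals.
Acot1: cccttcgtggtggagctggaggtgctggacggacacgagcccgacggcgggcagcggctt
Acot2: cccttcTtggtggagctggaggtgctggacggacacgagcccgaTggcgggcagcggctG
Acot3: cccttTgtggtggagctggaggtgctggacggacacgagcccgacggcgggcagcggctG
Acot2 differed from Acot1 in 3 of these 60 letters and Acot3 in 2, so their counts and those of Acot1 are uncertain too. The measured ratios of these relatives went different ways. Acot2, the mitochondrial form, had 693 and 682 UMIs, a log2 ratio of 0.00 to 2 decimals (-0.16 to 0.15). Acot3 and Acot4, both peroxisomal, were lower in C75S, from 251 to 143 CPM and from 151 to 113 CPM. These thioesterase genes lie side by side on chromosome 12, and of the 4 measured here Acot1 was the only one that was called higher.

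**Figure D2:**
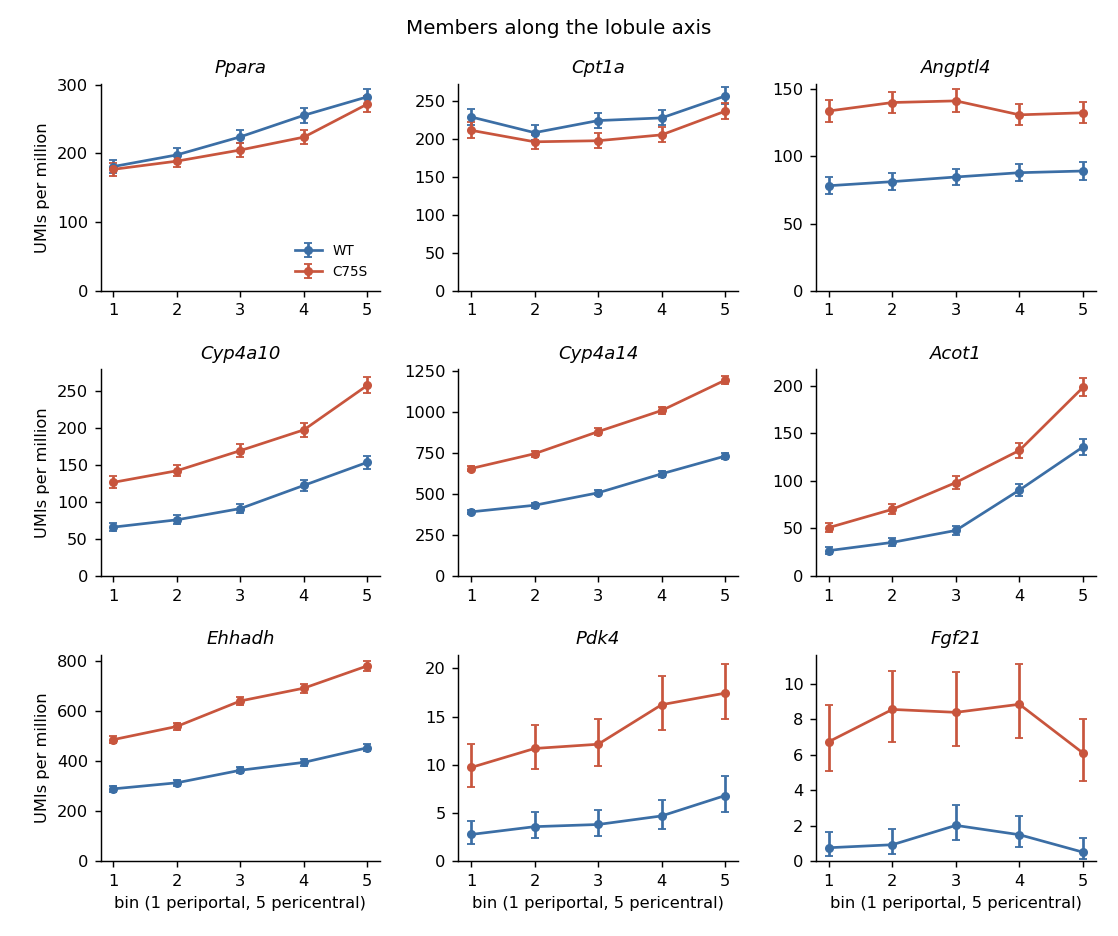
CPM of each gene (vertical axis, from 0) in 5 equal bins of the spots from the periportal (1) to the pericentral (5) end, for WT (blue) and C75S (red), with 95% Poisson intervals. Cyp4a10, Cyp4a14, Acot1, Ehhadh and Pdk4 climb toward the central vein in both sections with the C75S line above in each bin, Ppara climbs with the lines close together, and Cpt1a, Angptl4 and Fgf21 have no called gradient.

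Hepatocytes around the portal vein and around the central vein do different work, and spots were ordered between them by the ratio of Cyp2f2, a periportal gene, to Cyp2e1, a pericentral gene, and cut within each section into 5 bins of equal size, called periportal (bin 1) to pericentral (bin 5). The order was borne out by genes it did not use: Hal, a periportal enzyme of histidine breakdown, was at 363 CPM in the most periportal and 83.9 CPM in the most pericentral bin of WT, and Oat, a pericentral enzyme, was at 218 and 1844 CPM. Of the 9 genes, 6 were called higher in the pericentral than in the periportal bin, in WT (among 8 with at least 50 UMIs in the end bins) as in C75S (among 9), and none was called higher in the periportal bin. Over all genes tested, 14.9% were called pericentral and 5.30% periportal in WT, and 12.7% and 4.31% in C75S.

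Acot1 had the steepest gradient of the 9 genes. From the periportal to the pericentral bin it went through 26.6, 35.3, 47.9, 90.2 and 135 CPM in WT, a 5.09-fold difference between the ends. In C75S it went through 50.8, 70.0, 98.2, 132 and 198 CPM, a 3.90-fold difference. Each step of Acot1 was upward in both sections. Cyp4a10 went from 66.1 to 154 CPM in WT and from 127 to 258 CPM in C75S, and Cyp4a14 from 390 to 730 CPM and from 654 to 1192 CPM. The gradient of Cyp4a10 was 2.33-fold in WT and 2.04-fold in C75S, and that of its neighbor Cyp4a14 was 1.87-fold and 1.82-fold. The intervals of the 2 genes did not overlap in WT. In C75S they all but touched, with a lower log2 limit of 0.918 for Cyp4a10 and an upper limit of 0.914 for Cyp4a14. Within bins of C75S the variance over spots was 1.10 and 1.22 times that of Poisson counts. The intervals leave this out, so they do not set the 2 genes apart in C75S.

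Ppara was itself pericentral, on the same side of the lobule as Cyp4a10, Cyp4a14, Acot1, Ehhadh and Pdk4. The lists of peroxisomal (with Ehhadh) and mitochondrial (with Cpt1a) beta-oxidation and of fatty acid uptake had no gene called periportal in either section. Nor had the lists of thioesterases, of pyruvate dehydrogenase and of ketone body use. Over all genes tested only 5.30% in WT and 4.31% in C75S were called periportal, so none in a short list is little to read. Called pericentral were 14 of 23 peroxisomal genes in each section, and 8 of 14 uptake genes in WT and 6 of 14 in C75S. Of the mitochondrial genes 10 of 22 were called pericentral in WT and 5 of 22 in C75S. The CYP4 list, which holds Cyp4a10 and Cyp4a14, had 5 of 8 pericentral in WT, 7 of 8 in C75S and none periportal. The FGF21 receptor list had 3 of 5 periportal and none pericentral in each section. A list of other PPAR alpha targets, which also holds Fgf21 and Angptl4, was less one-sided. Of its genes with at least 50 UMIs in the end bins, 8 of 17 were called pericentral and 2 periportal in WT. In C75S these were 4 and 1 of 18. Ppara went through 181, 198, 224, 255 and 282 CPM in WT, and through 177, 189, 205, 224 and 272 CPM in C75S. The gradients were 1.56-fold and 1.54-fold, with a difference on the log2 scale of -0.02 (-0.16 to 0.11). Ehhadh had a gradient of like size, from 289 to 454 CPM in WT and from 487 to 782 CPM in C75S. Pdk4 went from 2.77 to 6.81 CPM and from 9.72 to 17.4 CPM, where the WT values rest on 22 and 54 UMIs.

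Cpt1a, Angptl4 and Fgf21 had no called gradient. Cpt1a went through 229, 208, 224, 228 and 257 CPM in WT and 211, 196, 198, 205 and 237 CPM in C75S, so that both ends lay above bin 2. Angptl4 was at 78.0 CPM in the periportal and 89.0 CPM in the pericentral bin of WT, and at 134 and 132 CPM in C75S. Fgf21 had 54, 76, 67, 74 and 51 UMIs in the bins of C75S and 6, 8, 18, 13 and 4 in those of WT, with intervals that overlapped from each bin to the next in both sections.

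**Figure D3:**
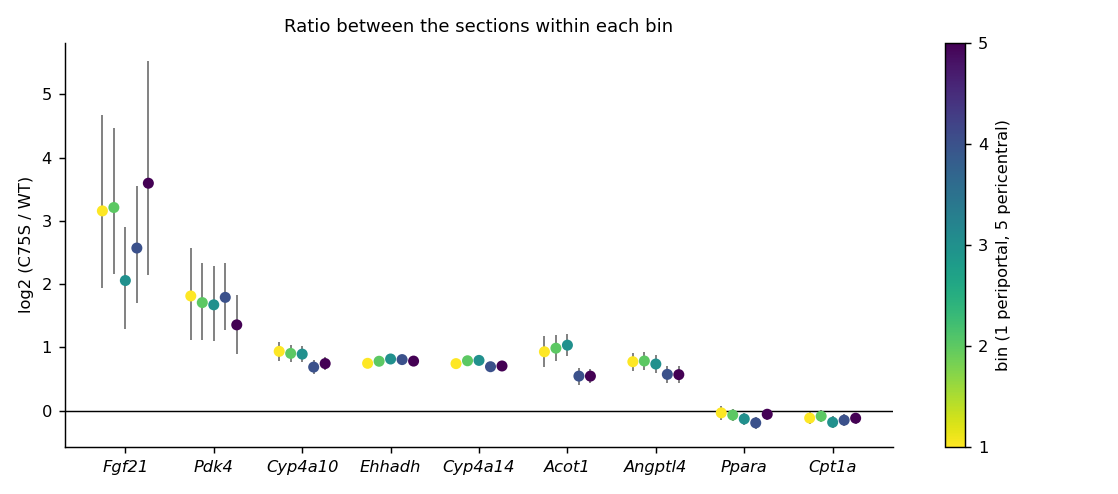
Log2 ratio of C75S over WT (vertical axis) for each gene within each bin, colored from periportal (1, yellow) to pericentral (5, dark), with 95% intervals. The 7 genes called over the whole sections lie above 0 in every bin, Ehhadh between 0.75 and 0.82, Acot1 at 0.93 to 1.04 in the first 3 bins and 0.55 in the last 2.

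The difference between the sections was present in all bins. The bins were cut within each section, so bins of equal number need not lie at the same place in the lobule. In the pericentral bin Cyp2f2 was at 370 CPM in WT and 569 in C75S, and Cyp2e1 at 13180 and 12018 CPM. Each of the 7 genes called over the whole sections had a log2 ratio above 0 in each of the 5 bins, with intervals that left out 0, including Fgf21 (2.06 to 3.59) and Pdk4 (1.36 to 1.81). Ehhadh was the most even, from 0.75 to 0.82, followed by Cyp4a14, from 0.70 to 0.80. Ppara lay between -0.19 and -0.03 and Cpt1a between -0.18 and -0.09 across the bins. The difference of the ratio between the end bins was called for 1 gene, Acot1, at -0.38 (-0.65 to -0.12), its excess in C75S being greater at the periportal end. Over all genes in this comparison 2.88% were called toward the pericentral and 3.08% toward the periportal end, so 1 of 9 genes is little to read, and the call was lost with bins cut on both sections together (-0.23), with 3 bins (-0.29) and after thinning to 3000 UMIs per spot (-0.17). Cyp4a10 (-0.19) and Angptl4 (-0.20) had intervals just below 0 but were not past the limit of 0.32.

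**Figure D4:**
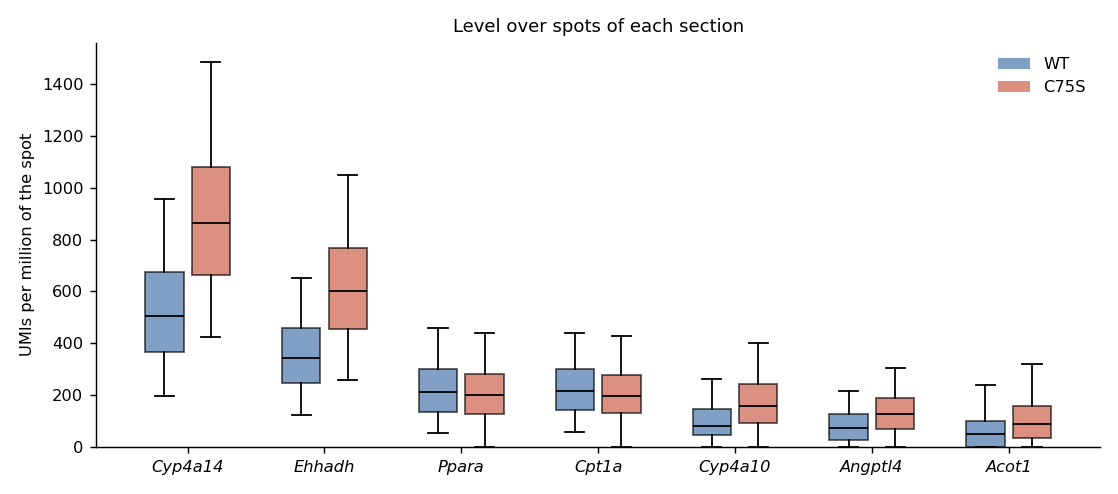
CPM of the spot for 7 genes in WT (blue) and C75S (red); lines, boxes and whiskers give the median, the 25th to 75th and the 5th to 95th percentile of the spots. For Cyp4a14 and Ehhadh the lower edge of the C75S box lies near the upper edge of the WT box, while the boxes of Ppara and of Cpt1a overlap almost wholly.

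Over single spots, Ehhadh and Cyp4a14 were higher in C75S through most of the section, while Fgf21 and Pdk4 had no UMI in most spots of either section. For Ehhadh, the 5th percentile, median and 95th percentile over spots were 124, 345 and 651 CPM in WT and 258, 603 and 1051 CPM in C75S, and 7.15% of WT spots were above the C75S median. For Cyp4a14 this share was 9.48%, whereas for Ppara it was 54.8% and for Cpt1a 58.3%. For the 7 genes other than Fgf21 and Pdk4, the richest 1% of spots held 2.86% to 6.55% of the UMIs. For Pdk4 it held 17.6% in WT and 10.9% in C75S, and for Fgf21 49.0% and 14.0%. Within a bin, the variance of the 7 genes other than Fgf21 and Pdk4 over spots was 1.02 to 1.28 times that of Poisson counts, where the median gene was at 1.01 in WT and 1.02 in C75S. The 95th percentile over genes was 1.15 in WT and 1.13 in C75S. Above it were Cyp4a14 (1.28 and 1.22), Acot1 (1.16 and 1.23) and, in C75S only, Ehhadh (1.24). The counting intervals of these genes, also along the axis, are therefore too narrow for the spread over spots.

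At equal depth, with each spot thinned to 3000 UMIs, Ehhadh was seen in 64.7% of 2305 WT spots (95% exact binomial interval 62.7 to 66.6) and in 82.1% of 2160 C75S spots (80.4 to 83.7). Without thinning it was seen in 99.1% and 99.4%, where nearly each spot has a UMI and the share tells little. Pdk4 was seen in 1.39% (0.951 to 1.95) and 4.03% (3.24 to 4.94) of thinned spots, and in 7.49% and 21.5% of full ones. Ppara was seen in 48.7% (46.7 to 50.8) and 47.5% (45.3 to 49.6) of thinned spots, whose intervals overlap. Cpt1a was seen in 49.8% (47.8 to 51.9) and 44.6% (42.5 to 46.8), whose intervals do not. These intervals take each spot as an independent draw, but spots are regions of a single section and not replicates. A spot holds several cells, and more cells with the RNA cannot be told apart from more RNA in each cell.

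**Figure D5:**
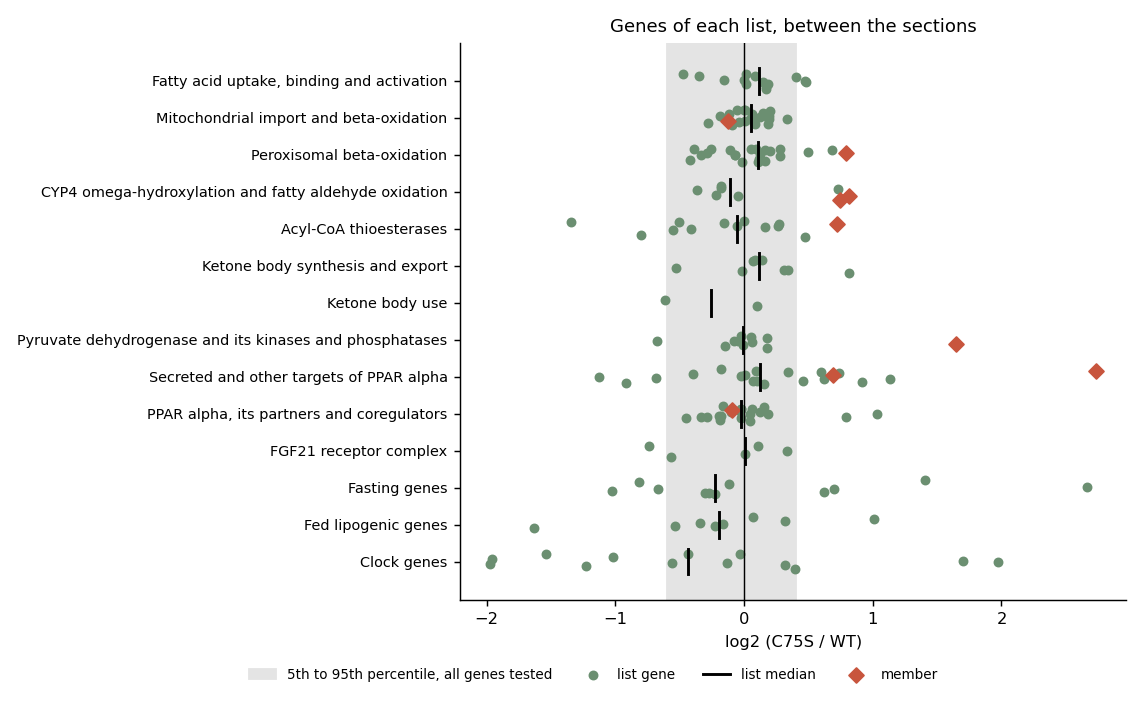
Log2 ratio of C75S over WT for each gene with at least 50 UMIs of 14 lists (points; the 9 genes as red diamonds, which also stand in their lists), with list medians (black bars) and the 5th to 95th percentile of all genes tested (gray). The medians of all 14 lists lie inside the gray band, and 7 of the 9 red diamonds lie to the right of it.

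The genes of ketone body synthesis and export were split. Acat1, which supplies acetoacetyl coenzyme A, was called higher at a log2 ratio of 0.34 (99.7 CPM in WT and 126 in C75S). Bdh1, which reduces acetoacetate to beta-hydroxybutyrate, was at 421 and 447 CPM. Slc16a1, the monocarboxylate transporter MCT1, was higher, at 20.1 and 35.3 CPM (log2 ratio 0.81, 0.69 to 0.94). Slc16a6, the exporter induced in fasting, was at 5.42 and 5.97 CPM (0.14), and Slc16a7 at 83.4 and 82.5 CPM (-0.02), and neither was called. Bdh2, a cytosolic dehydrogenase, was lower (-0.53). In all, 2 of the 8 ketone body genes were called higher and 1 lower, with a median of 0.11. Along the lobule 4 of the 8 genes were called pericentral and 2 periportal in each section. Bdh1 was pericentral, by 1.89-fold in WT and 1.62-fold in C75S. Bdh2 was periportal by 3.88-fold and 3.57-fold, and Slc16a6 by 2.27-fold and 2.19-fold. For ketone body use, which hepatocytes lack, Oxct1 was at 8.54 and 9.17 CPM, and Aacs, which uses acetoacetate for lipid synthesis, was lower (-0.61).

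Mitochondrial beta-oxidation was the most even list. Of its 23 genes, Cpt1a among them, none was called in either direction, and their median was 0.05. Among those with at least 200 UMIs, the ends were Etfdh (0.20) and Decr1 (0.19) on the higher side and Echs1 (-0.28) and Etfb (-0.19) on the lower. Peroxisomal beta-oxidation had 3 genes called higher and 3 lower of 23, with a median of 0.11. Beside Ehhadh, the higher genes were Crat and Crot, the carnitine acyltransferases that carry shortened chains out of peroxisomes (0.68 and 0.50), and the lower genes included Pecr (-0.42) and Nudt7 (-0.39).

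Uptake and activation of fatty acids gave 3 of 14 genes called higher, Acsl1 (0.48), Cd36 (0.47) and Acsl5 (0.40), and 2 lower, Slc27a1 (-0.47) and Fabp2 (-0.35), with a median of 0.11. The CYP4 list had 3 of 8 genes called higher, all of the CYP4A family, and 1 lower. The thioesterase list had Acot1 alone called higher and 4 of 13 lower, the lowest being Acot11 (-1.34) and Acot3 (-0.81), while Acot12 was at 0.27. The pyruvate dehydrogenase list had Pdk4 alone called higher and Pdk2 alone lower of 11, with Pdha1 at 0.18 and Pdp2 at -0.14.

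Other targets of PPAR alpha were split. Of 20 in the list that also holds Fgf21 and Angptl4, 8 were called higher and 4 lower, with a median of 0.13. Higher were Txnip, which limits glucose uptake (log2 ratio 1.14), Gpd1 of glycerol phosphate synthesis (0.73), Plin2 of the lipid droplet coat (0.62), the pantetheinase Vnn1 (0.60), Retsat (0.34) and, on 60 UMIs, Cidec (0.91). Lower were Tsku (-1.13), the aminotransferase Gpt (-0.92), Vldlr (-0.69) and Slc25a34 (-0.40). In the FGF21 receptor complex, Klb, the coreceptor beta-klotho, was at 0.11, Fgfr4 at 0.00, Fgfr2 was higher (0.33), and Fgfr1 (-0.57) and Fgfr3 (-0.74) were lower. Over 138 genes of these lists other than the 9, 17 (12.3%) were called higher and 21 (15.2%) lower, with a median of 0.03, beside 5.70% and 12.2% of all genes tested.

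Some lists that move with feeding state or time of day also differed between the sections. Of 11 fasting genes 4 were called higher, with Igfbp1 at 2.66 and G6pc at 1.41, and 3 lower, with Tat at -1.03 and Sds at -0.81. Of 8 lipogenic genes of the fed state 1 was higher, Scd1 (1.01), and 3 were lower, with Thrsp at -1.63, and Me1 was at 0.32. Of 13 clock genes 3 were higher and 7 lower, with Arntl at 1.70, Clock at 0.40, Per2 at -1.97 and Per3 at -1.96. Pdk4, Fgf21 and Ppara are genes whose level is known to follow both meals and the clock. The hour of collection and the feeding of each mouse were not given in the sources used here, and their part in the ratios of the 9 genes was not tested.

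Cell type markers differed as well. Of 4 Kupffer cell markers 3 were called higher in C75S (784 CPM summed in WT and 1046 in C75S), and so were 3 of 5 stellate cell markers, with 1 lower (580 and 723 CPM). All 4 portal fibroblast markers (140 and 68.7 CPM), 4 of 5 cholangiocyte markers (129 and 96.6 CPM), 4 of 5 markers of vessels and smooth muscle (62.6 and 38.8 CPM) and all 4 red blood cell markers (627 and 416 CPM) were lower, whereas none of 5 sinusoidal endothelium markers was called (470 and 487 CPM). Hepatocyte markers summed to 178500 CPM in WT and 186038 in C75S, with 2 of 5 called higher and 1 lower. Without the tenth of spots richest in cholangiocyte and portal fibroblast markers, the same 7 genes were called, at 0.67 (Angptl4) to 2.71 (Fgf21). The same share of spots was left out of each section (231 in WT and 217 in C75S), so the content of portal tracts was not made equal. The part of portal tract, Kupffer and stellate cells in the ratios was not tested.

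Patterns over the 10 bins of both sections were compared by the Pearson correlation of log2(CPM + 1) over 6883 genes with at least 1000 UMIs. These points share their 2 libraries and the axis, so the values are a description. Cyp4a10 and Cyp4a14 were each other's nearest gene (r = 0.996), followed for both by Cyp3a11 (0.995), the main CYP3A enzyme of mouse liver. Ehhadh was nearest to Acsl1 (0.994), Gsr (0.987) and Pnp (0.986), and Acot1 to Mup17 (0.998), Mbl1 and Rbp4 (both 0.996). Ppara was nearest to Lhpp (0.994), Pdzk1 (0.992) and Aldh1a1 (0.989). Cpt1a was nearest to Rxra (0.960), Aco1 (0.959) and Rab5b (0.956). Angptl4 was nearest to Elovl5 (0.993), Fn1 (0.991) and Scd1 (0.986). Within the 5 bins of 1 section the r of Angptl4 was lower, at 0.740 in WT and 0.662 in C75S with Elovl5, 0.514 and 0.800 with Fn1, and 0.344 and 0.341 with Scd1.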

How the data were processed

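Sections of 5 μm from formalin-fixed liver, 1 per mouse, were measured with the Visium assay for fixed tissue. The deposited count tables were made by the authors with Space Ranger 2.0.1 on mm10 and hold raw UMI counts of 19465 genes. No column of another sample was present (0 columns).

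Spots with at most 50000 UMIs were kept, and 11 later entries of repeated symbols were left out. UMIs were summed over each section and over 5 equal bins of (Cyp2f2 + 1)/(Cyp2e1 + 1), with ties in file order. Ratios carry exact binomial (Clopper-Pearson) intervals of 2 sums, differences of ratios normal intervals of 4 Poisson sums (at least 100 UMIs), all at 95%. No test between genotypes was possible with 1 section each. Named were the 9 genes and the 2 highest and 2 lowest genes of each list with at least 200 UMIs. The ketone body synthesis genes and the 3 genes nearest in pattern were named too. Further genes, called or not, were named after their values were seen. Members and lists were chosen with earlier results of these data known. Glul was not analysed here, and some genes that this rule names are not reported here. Positions and sequences came from GENCODE and GRCm38. Python 3.11.15, numpy 2.4.6, scipy 1.17.1, pandas 2.3.3 and edgeR 4.0.16 were used. The intervals were checked on simulated Poisson counts. This is the model they assume, so the check does not cover spread between spots or mice. Alternatives were other scalings, filters, thinning, minimums, fold limits and axes.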

Additional observations from a re-analysis of the deposited data

Results flagged for a closer look

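The gradient of Acot1 differed between the sections in a call that was lost under 4 alternatives: the log2 ratio of the pericentral over the periportal bin was 2.35 in WT and 1.96 in C75S, a difference of -0.38 with a 95% interval of -0.65 to -0.12 that covers counting error only. Acot1 was at 26.6 and 50.8 CPM in the periportal bins and at 135 and 198 CPM in the pericentral bins of WT and C75S. The difference was -0.23 with bins cut on both sections together, -0.29 with 3 bins and -0.17 after thinning, none of them called, and -0.38 did not pass the 1.5-fold limit. The gradients of Angptl4 had opposite signs, 0.19 in WT and -0.01 in C75S, a difference of -0.20 (-0.40 to -0.01) that was not past the limit of 0.32, and the C75S gradient had an interval from -0.14 to 0.11. Without spots of fewer than 10000 UMIs the Angptl4 gradients were 0.19 in WT and 0.02 in C75S, so their signs were then alike. With 1 mouse per genotype, neither difference was tested over animals.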

How the results depend on the processing

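Under all 12 alternatives to the comparison between the sections, 7 genes were called higher and none lower. Log2 ratios were 0.67 to 0.74 for Angptl4 and 0.69 to 0.94 for Acot1. For Ppara they were -0.11 to -0.04 and for Cpt1a -0.21 to -0.07. For Fgf21 they were 2.49 to 2.79, apart from 3.54 without the 1% of spots richest in it. Leaving out those spots removes a larger share of its UMIs in WT than in C75S. Past 1.5-fold, 10 of the other pathway genes were called higher and 8 lower, in place of 17 and 21. TMM factors gave 22 and 17. The 6 genes called pericentral in each section became 5 of 7 after thinning, when Pdk4 and Fgf21 had too few UMIs. The called difference along the axis, that of Acot1, was not called with pooled bins, 3 bins, thinning or the 1.5-fold limit (0 genes each). The alternative without spots of fewer than 10000 UMIs, and those of the axis difference with no spot filter or other totals, were chosen after seeing the data. No replicate could be left out with 1 section per genotype. Depth limits Fgf21 and Pdk4 in WT most, with 49 and 182 UMIs.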
